A study of Mus musculus with 20 samples.

Results

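Levels were examined for 9 mouse chemokine genes: the CXC ligands *Cxcl2*, *Cxcl9*, *Cxcl10* and *Cxcl16*, and the CC ligands *Ccl3*, *Ccl4*, *Ccl5*, *Ccl6* and *Ccl9*. They were chosen by name, with earlier results of these data known. They are 9 of the 31093 gene names on a mouse whole-genome expression array, and every non-control probe annotated to them was taken. The array carried 11 probes for them among 39429 non-control probes, 1 each for 7 genes and 2 each for *Cxcl9* and *Cxcl10*. After filters on background and on variation, 9 of the 11 probes were tested, 1 for each gene, among 18587 tested probes in all. RNA came from whole blood of young adult male mice in 4 groups of 5 individual animals: wild-type (WT) C57BL/6 mice and littermate *Il10*-/- mice of the B6.129P2-*Il10*tm1Cgn/J line, each either sham-irradiated (0 Gy) or exposed to 7 Gy of X-rays over the whole body. All animals were bled by cardiac puncture 24 h after treatment. *Il10*-/- animals carry, in every tissue, a disrupted gene for interleukin 10, an anti-inflammatory cytokine, and serve as a model of inflammatory bowel disease.

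Chemokines are small secreted proteins that bind G protein-coupled receptors on leukocytes and direct their migration along a concentration gradient. CXC ligands such as *Cxcl2* attract mainly neutrophils through CXCR2, whereas *Cxcl9* and *Cxcl10* are induced by interferons and attract activated T cells and NK cells through CXCR3. *Cxcl16* is made as a membrane-bound ligand of CXCR6. *Ccl3*, *Ccl4* and *Ccl5* are inflammatory ligands made by activated T cells, NK cells and macrophages, and *Ccl6* and *Ccl9* are rodent ligands of CCR1 made by cells of the myeloid lineage.

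All levels are log2 signals relative to the median probe of the same array, so that 0 is the array median, and levels of different probes are not compared with each other. A difference was called when its p-value in limma, a linear model with a moderated variance, was under 0.001 and its false discovery rate over all 18587 tested probes was under 10%. The first threshold was the stricter in both responses to irradiation, so a difference could have an adjusted p well under 10% and not be called. Each of 5 slides held 1 array of every group, so each comparison could also be read within slides. The share of spots well above background was 29.9% on the array of WT 0 Gy replicate 5 and between 34.6% and 57.8% on the other 19 arrays. Replicates 1 and 2 differed less than any other pair in their group, with a robust SD of 0.230 to 0.336 over probes against 0.407 to 1.39 in the other 36 pairs. Repeated spots within their own arrays differed less (SD 0.064 to 0.083), but repeated hybridizations of the same RNA could also differ by more than such spots. Replicates 1 and 2 were counted as separate mice by their labels, and whether they were was not tested. Repeated spots had an SD of 0.444 on the array of WT 0 Gy replicate 5, 0.116 on that of WT 0 Gy replicate 4 and less on the others. Without replicate 5 the WT rises of *Ccl9* and *Ccl6* were 2.34 and 1.77, both called. The probe for *Il10* went against the genotype labels: it averaged −1.54 ± 0.45 and −1.85 ± 0.61 (SD, n = 5) in WT mice at 0 and 7 Gy, where it was well above background on 0 of 10 arrays, and 2.75 ± 0.31 and 2.71 ± 0.62 in *Il10*-/- mice, where it was well above background on 10 of 10. The sources used here do not give the position of this probe relative to the part of the gene that the allele disrupts. WT and *Il10*-/- therefore stand throughout for mice labelled WT and mice labelled *Il10*-/-, and each direction between genotypes rests on those labels.

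Among the 9 genes, *Ccl6*, *Ccl9* and *Cxcl10* were those whose irradiated and unirradiated WT mice separated completely, and their promoters are shown for that reason. The probes for *Ccl6* (chromosome 11, 83401997 to 83402056 in build mm9) and *Ccl9* (chromosome 11, 83388223 to 83388282) lie close together. On that chromosome they fall between the probe for *Ccl5* (83339296 to 83339355) and those for *Ccl3* (83461358 to 83461417) and *Ccl4* (83478052 to 83478111). The probe for *Cxcl10* (chromosome 5, 92775781 to 92775840) lies near that for *Cxcl9*. RefSeq promoter sequences of build GRCm38.p6 were matched for 6 of the 9 genes, and the 250 bases before the start of transcription are printed 5′ to 3′ on the gene's own strand. Capitals mark matches to the motifs named below.
*Ccl6*, chr11:83593088-83593337, minus strand: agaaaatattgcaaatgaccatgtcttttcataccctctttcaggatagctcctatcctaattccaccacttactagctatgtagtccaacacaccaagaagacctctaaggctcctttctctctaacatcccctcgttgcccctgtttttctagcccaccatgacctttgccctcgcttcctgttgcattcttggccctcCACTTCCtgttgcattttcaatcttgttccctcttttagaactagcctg
*Ccl9*, chr11:83578637-83578886, minus strand: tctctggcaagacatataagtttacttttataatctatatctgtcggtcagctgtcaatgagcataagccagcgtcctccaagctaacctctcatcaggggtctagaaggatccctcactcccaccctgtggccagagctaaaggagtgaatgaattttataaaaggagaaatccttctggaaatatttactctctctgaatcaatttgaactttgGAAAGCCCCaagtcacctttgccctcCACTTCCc
*Cxcl10*, chr5:92348890-92349139, minus strand: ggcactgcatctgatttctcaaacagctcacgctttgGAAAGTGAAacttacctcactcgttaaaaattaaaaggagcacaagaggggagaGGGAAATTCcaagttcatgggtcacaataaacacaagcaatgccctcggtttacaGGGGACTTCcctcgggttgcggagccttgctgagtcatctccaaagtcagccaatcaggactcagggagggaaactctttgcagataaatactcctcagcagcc

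Both strands of 32851 RefSeq promoters of this length were searched for 4 short motifs. The core of the interferon-stimulated response element, GAAANNGAA, was present in 7.13% of all promoters and in 3 of the 6 matched members, *Cxcl10* at 213 bases and *Cxcl9* at 175 bases before the start site, and *Ccl3* on the opposite strand at 39 bases. The NF-kB core GGGNNNTTC was present in 11.8% of all promoters and in 4 of the 6 members, namely *Cxcl2*, *Cxcl9*, *Ccl9* at 34 bases on the opposite strand, and *Cxcl10* at 159 and 104 bases before the start. The ETS motif GGAAGTG, found in 8.55% of all promoters, was present in *Ccl6* at 49 bases and in *Ccl9* at 8 bases before the start, in both on the opposite strand. The interferon-gamma activated sequence TTCNNNGAA was in 7.02% of all promoters and in 0 of the 6. The *Ccl6* and *Ccl9* promoters shared a stretch of 17 aligned bases, 16 of them identical, which contains the ETS match in both and ends 43 bases before the *Ccl6* start and 2 bases before the *Ccl9* start. The letters of the motifs were settled after matches had been seen, so member counts beside the shares of all promoters cannot show enrichment. These matches describe letters only and were not tested as binding sites.

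The main question of the design was how whole blood RNA changed 24 h after 7 Gy in each genotype. In WT mice, *Ccl6* and *Ccl9* rose, 2 of the 9 genes, against 6.8% of all tested probes called in either direction, 4.48% higher and 2.32% lower. In *Il10*-/- mice, *Ccl6*, *Ccl9* and *Cxcl16* rose, 3 of the 9, against 9.16% of all tested probes called, 3.29% higher and 5.87% lower. No member was called lower in either genotype. Because the 9 genes were chosen with earlier results of these data known, counts and medians beside those of all probes cannot show enrichment. At an unadjusted p under 0.05 there were 4 members in WT and 5 in *Il10*-/- mice, against 29.1% and 35.5% of all tested probes. The irradiated group lay wholly above the unirradiated one for 3 members in WT (*Ccl6*, *Ccl9* and *Cxcl10*) and 3 in *Il10*-/- mice (*Ccl6*, *Ccl9* and *Cxcl16*), against 11.8% and 6.13% of all tested probes, while 4.26% and 10.9% lay wholly below and 0 members did. The median log2 difference over the 9 genes was 0.82 in WT and 0.99 in *Il10*-/- mice, beside medians of −0.020 and −0.10 over all tested probes. The WT median is the value of *Cxcl9*, whose probe was near background, and *Cxcl2*, mostly not well above background, is among the 9. Between unirradiated genotypes, 0 of the 9 genes were called by limma, against 0.845% of all tested probes, and 1 (*Ccl5*) had an unadjusted p under 0.05, against 16.1% of all tested probes. No probe on the array was called for a difference between the genotypes in their response. At an unadjusted p under 0.05, 7% of all tested probes passed in that last comparison, and 2 of the 9 genes, *Ccl6* and *Cxcl2*. With normexp in place of the scanner's background subtraction, 0 of 11433 probes were called in the *Il10*-/- response, so each call in *Il10*-/- mice given below depends on the background correction.

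**Figure D1:**
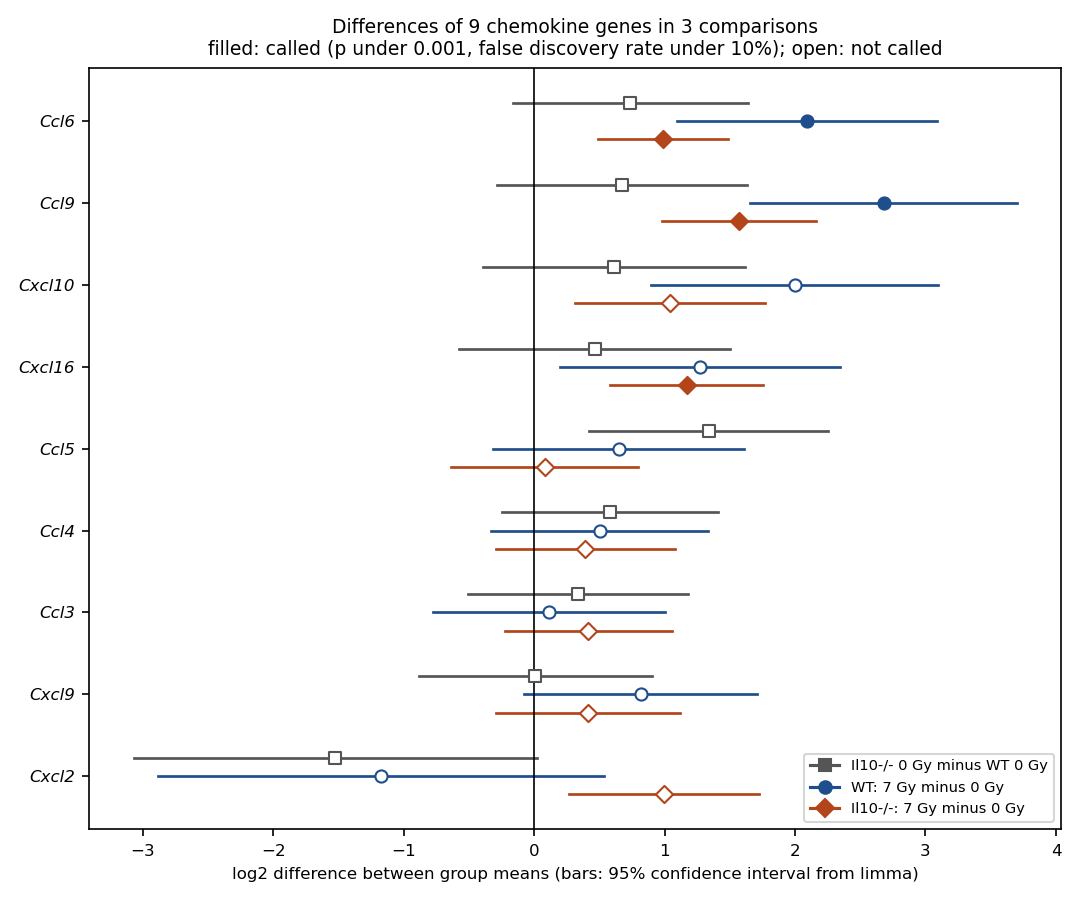
Log2 differences (horizontal axis) of the 9 chemokine genes between group means in 3 comparisons, with 95% confidence intervals from limma. Squares are unirradiated *Il10*-/- minus unirradiated WT mice, circles and diamonds are 7 Gy minus 0 Gy in WT and *Il10*-/- mice, and filled symbols are called differences: *Ccl6* and *Ccl9* in both responses and *Cxcl16* in *Il10*-/- mice.

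*Ccl9*, the CCR1 ligand, showed the largest called rise of the 9 genes in both genotypes. Its log2 level in unirradiated WT mice was 6.34, 6.50, 6.39, 4.85 and 4.31, replicates 1 to 5 in that order. After 7 Gy the WT mice had 7.92, 7.99, 8.24, 8.55 and 9.08. Every irradiated WT mouse was above every unirradiated one, and replicates 4 and 5 of the unirradiated group were the lowest. Their arrays also had the lowest shares of spots well above background in that group, 38.5% and 29.9%. The difference was 2.68 on the log2 scale (6.41-fold, SE 0.48, 95% confidence interval 1.66 to 3.70, adjusted p = 0.00219). The *Il10*-/- mice had levels of 6.20, 6.23, 6.36, 6.90 and 6.06 without irradiation and 7.47, 7.64, 8.09, 7.75 and 8.65 after it. The *Il10*-/- groups did not overlap either, and the difference was 1.57 (2.97-fold, SE 0.27, 95% confidence interval 0.98 to 2.16, adjusted p = 0.00241). The rise was present on 5 of 5 slides in each genotype. In WT mice it was 3.70 and 4.78 on the slides of replicates 4 and 5, and 1.49, 1.85 and 1.58 on the others. In *Il10*-/- mice it ranged from 0.84 to 2.59 within slides. The part of array quality in these differences was not tested. The rise was called whichever mouse was left out, with differences between 2.34 and 2.89 in WT and between 1.39 and 1.71 in *Il10*-/- mice. With normexp the *Il10*-/- difference was 1.14 (adjusted p = 0.944).

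*Ccl6*, a second CCR1 ligand, rose in the same direction but its call was less stable. Unirradiated WT mice had log2 levels of 8.86, 8.98, 8.55, 7.59 and 6.87, and irradiated WT mice had 9.75, 9.85, 10.02, 10.56 and 11.13. The groups did not overlap, with the lowest unirradiated levels again in replicates 4 and 5. The WT difference was 2.09 (4.26-fold, SE 0.47, 95% confidence interval 1.10 to 3.09, adjusted p = 0.00841), and within slides it ranged from 0.87 to 4.26. Without WT 0 Gy replicate 4, WT 7 Gy replicate 4 or WT 7 Gy replicate 5 it was 1.95, 2.02 and 1.87, and in none of these was it called (adjusted p = 0.0253, 0.0142 and 0.0239). Levels in *Il10*-/- mice were 8.72, 8.77, 8.79, 9.11 and 9.14 before and 9.50, 9.65, 9.85, 10.35 and 10.12 after irradiation. These groups were tighter and did not overlap, with a difference of 0.99 (1.98-fold, SE 0.23, 95% confidence interval 0.49 to 1.49, adjusted p = 0.0108) and a range of 0.78 to 1.24 within slides. That p-value, 0.000983 before adjustment, was just inside the threshold, and the call was lost on leaving out any of 9 of the 10 mice, the exception being *Il10*-/- 7 Gy replicate 1, with differences from 0.87 to 1.05. With normexp the differences were 2.68 in WT (adjusted p = 0.0459) and 0.65 in *Il10*-/- mice (adjusted p = 0.944), neither of them called, and with replicates 1 and 2 averaged the *Il10*-/- difference was 1.03 (adjusted p = 0.0464).

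**Figure D2:**
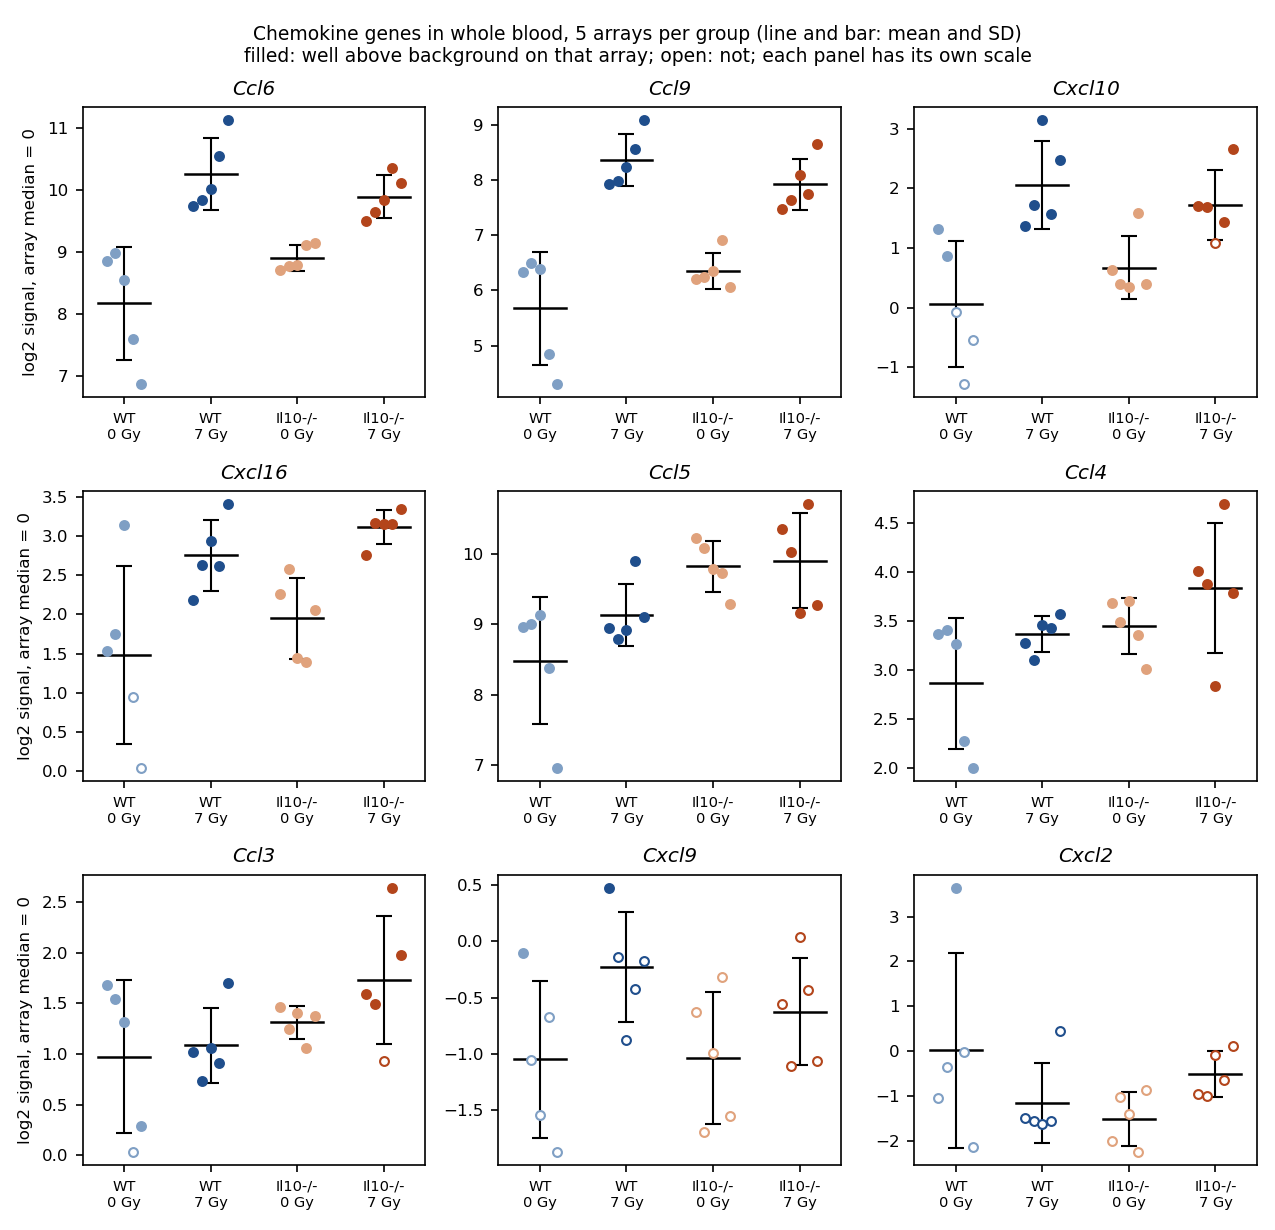
Log2 signal relative to the array median (vertical axis, own scale in each panel) of the 9 chemokine genes in 4 groups of 5 mice, replicates 1 to 5 from left to right within a group. Lines and bars are means and SDs, and open circles are arrays on which the probe was not well above background: the irradiated groups lie wholly above the unirradiated ones for *Ccl6* and *Ccl9* in both genotypes, for *Cxcl10* in WT and for *Cxcl16* in *Il10*-/- mice.

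Whole blood RNA mixes cell types, and more cells of a type cannot be told apart from more RNA per cell. Of 8 monocyte marker genes, 7 were on the array. Their summed linear level, in units of the array median, ranged from 747 to 1058 in unirradiated and 929 to 1877 in irradiated WT mice, and from 905 to 1291 and 1370.2 to 2497 in *Il10*-/- mice. Among them *Cd14*, the lipopolysaccharide co-receptor, was called higher and *Cx3cr1*, the fractalkine receptor, lower after irradiation in WT mice, and *Cx3cr1* and *Ccr2* were called lower in *Il10*-/- mice. At an unadjusted p under 0.05, 5 of the 7 passed in each genotype, 4 of them higher in WT and 3 higher in *Il10*-/- mice. The shares of all tested probes at that level, in either direction, were 29.1% and 35.5%. Of 9 tested hepatocyte genes, 7 were called higher after irradiation in WT mice and 0 in *Il10*-/- mice, and 9 and 0 were higher at an unadjusted p under 0.05, with summed levels of 69.5 to 214 and 179 to 56997 in WT and of 142 to 18052 and 88.7 to 17651 in *Il10*-/- mice. *Apoa1* and *Fgg* were not well above background on any array of unirradiated WT mice. Of 5 tested heart muscle genes, 0 were called in WT, where 3 were higher at an unadjusted p under 0.05, and 5 were called higher in *Il10*-/- mice. The heart muscle sum was 3.77 to 54.7 in unirradiated and 6.84 to 4840.0 in irradiated WT mice. The same sum was 3.98 to 139.6 in unirradiated and 29.6 to 3931 in irradiated *Il10*-/- mice. The part of these cell types in the chemokine differences was not tested.

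*Cxcl10*, an interferon-induced ligand of CXCR3, had higher levels after irradiation without passing the threshold. In unirradiated WT mice its log2 level was 1.33, 0.87, −0.073, −1.28 and −0.55, well above background on 2 of 5 arrays. In irradiated WT mice it was 1.37, 1.73, 3.14, 1.58 and 2.48, well above background on all 5. The groups did not overlap, although the highest unirradiated mouse lay only just under the lowest irradiated one. The difference was 2.00 (SE 0.52, 95% confidence interval 0.90 to 3.10, adjusted p = 0.0183) and positive on 5 of 5 slides. It would have been called without WT 0 Gy replicate 1, at 2.31 and an adjusted p of 0.0117. The *Il10*-/- mice stood at 0.62, 0.40, 0.35, 1.59 and 0.40 before and 1.71, 1.69, 1.08, 1.44 and 2.66 after 7 Gy. There 1 unirradiated mouse, replicate 4, overlapped the irradiated group, and the difference was 1.04 (SE 0.34, adjusted p = 0.0430). The second *Cxcl10* probe was not well above background on any array and was not tested.

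*Cxcl9*, the other CXCR3 ligand of the set, was near background throughout. Its tested probe was well above background on 1 of 5 arrays in each WT group and on 0 of 10 in *Il10*-/- mice. The log2 level ranged from −1.87 to −0.11 in unirradiated and −0.88 to 0.47 in irradiated WT mice, and the difference of 0.82 (SE 0.42, adjusted p = 0.217) was not called, though positive on 5 of 5 slides. The *Il10*-/- difference was 0.41 (adjusted p = 0.396). The second probe, which the filters removed, was well above background on 2 of 5 irradiated WT arrays, at 1.05 and 1.01, and on none of the other 18 arrays.

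*Cxcl16*, the ligand of CXCR6, was called in *Il10*-/- mice. The unirradiated *Il10*-/- mice had log2 levels of 2.26, 2.58, 1.45, 1.40 and 2.06, and the irradiated ones had 2.75, 3.17, 3.16, 3.16 and 3.35. The groups did not overlap, and the difference was 1.17 (2.25-fold, SE 0.27, 95% confidence interval 0.58 to 1.76, adjusted p = 0.0103), positive on 5 of 5 slides. As for *Ccl6*, the call rested on the exact set of mice: it was lost on leaving out any of 9 of the 10, the exception being *Il10*-/- 0 Gy replicate 2, with differences from 1.03 to 1.26. With replicates 1 and 2 averaged the difference was 1.33 and not called (adjusted p = 0.0259). In WT mice the levels were 1.53, 1.75, 3.15, 0.95 and 0.038 before and 2.18, 2.63, 2.94, 2.62 and 3.41 after irradiation. Here the unirradiated group was wide, with replicate 3 above 4 of the 5 irradiated mice, and the difference of 1.27 (SE 0.51, adjusted p = 0.104) was not called. The difference between the genotypes in their response was −0.10 (95% confidence interval −1.33 to 1.12, adjusted p = 0.973), so an unequal response of *Cxcl16* was not shown.

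The inflammatory ligands *Ccl3*, *Ccl4* and *Ccl5* were not called after irradiation in either genotype. For *Ccl5* the difference after 7 Gy was 0.65 (95% confidence interval −0.31 to 1.61, adjusted p = 0.379) in WT and 0.08 (−0.63 to 0.79, adjusted p = 0.882) in *Il10*-/- mice. For *Ccl4* it was 0.50 (−0.33 to 1.33, adjusted p = 0.436) and 0.39 (−0.29 to 1.08, adjusted p = 0.403). For *Ccl3* it was 0.11 (−0.78 to 1.00, adjusted p = 0.892) and 0.42 (−0.23 to 1.06, adjusted p = 0.342). These intervals leave room for differences of about the size measured for *Ccl6* in *Il10*-/- mice in several cases, so equal levels were not shown. In all 3 genes unirradiated WT replicates 4 and 5 were the lowest of their group, at 2.28 and 2.01 for *Ccl4* against 3.27 to 3.41 in the other WT replicates.

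Between unirradiated genotypes, the question was whether the chemokines differed before any exposure. *Ccl5* was the gene of the 9 whose groups did not overlap, with log2 levels of 8.96, 9.0, 9.14, 8.37 and 6.96 in WT and 10.23, 10.08, 9.79, 9.74 and 9.28 in *Il10*-/- mice, beside 3.98% of all tested probes that were higher and 0.554% that were lower without overlap. The difference was 1.34 (2.53-fold, SE 0.44, 95% confidence interval 0.42 to 2.25), higher in *Il10*-/- mice on 5 of 5 slides, and did not pass (adjusted p = 0.215). *Ccl4* stood 0.58 higher in *Il10*-/- mice (adjusted p = 0.401), *Ccl6* 0.74 (adjusted p = 0.356), *Ccl9* 0.67 (adjusted p = 0.402) and *Cxcl10* 0.61 (adjusted p = 0.448), none of them called. The median over the 9 genes was 0.58 and over all tested probes 0.36. Because the array median sets the scale, that general shift depends on it, and centring arrays on their 75th percentile instead put the median over all tested probes at −0.072. Of 7 neutrophil marker genes on the array, 4 were called higher in unirradiated *Il10*-/- mice, namely *S100a8*, *S100a9*, *Retnlg* and *Il1r2*, with summed levels of 10857 to 29258 against 2989 to 8126 in WT mice. The monocyte gene *Cd14* and the hepatocyte gene *Alb* were also called higher there, by 2.23 (adjusted p = 0.0761) and 5.75 (adjusted p = 0.0878), and 7 of 9 hepatocyte genes were higher at an unadjusted p under 0.05. T cells and NK cells are known sources of *Ccl5*. Of their tested markers 1 of 6 and 3 of 8 were higher at an unadjusted p under 0.05, none of them called, beside 16.1% of all tested probes at that level. T cell sums were 319 to 965 in WT and 822 to 999.8 in *Il10*-/- mice, and NK cell sums were 177 to 564 and 515 to 870.1. The part of these cells in the chemokine levels between genotypes was not tested. The baseline comparison shares its unirradiated groups with the 2 responses, so the 3 sets of differences are not independent.

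*Cxcl2*, a neutrophil attractant, was measured well above background in 1 mouse out of 20, unirradiated WT replicate 3, at 3.63. The other unirradiated WT mice lay between −2.13 and −0.02, irradiated WT mice between −1.61 and 0.44, unirradiated *Il10*-/- mice between −2.25 and −0.86, and irradiated *Il10*-/- mice between −0.99 and 0.12. No difference was called: the fitted values were −1.17 (adjusted p = 0.368) for irradiation in WT, 0.99 (adjusted p = 0.0521) in *Il10*-/- mice and −1.52 (adjusted p = 0.314) between unirradiated genotypes. They carry no usable fold in *Il10*-/- mice, since the probe was not well above background on any array of either group there. No fold or bound is given against unirradiated WT mice either, because only replicate 3 of that group was well above background. Without that mouse the log2 difference was −0.27 for irradiation in WT and −0.62 between unirradiated genotypes.

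Whether irradiation moved the chemokines differently in the 2 genotypes was tested as an interaction over all 20 arrays. The response in *Il10*-/- mice minus that in WT mice was −1.10 (SE 0.53) for *Ccl6* and −1.11 (SE 0.56) for *Ccl9*, and the adjusted p was 0.688 for each. *Cxcl10* had −0.95 (adjusted p = 0.716), *Ccl5* −0.57 (adjusted p = 0.804) and *Cxcl2* 2.17 (adjusted p = 0.688). The larger fitted rises of *Ccl6*, *Ccl9* and *Cxcl10* in WT mice were therefore not shown to differ from those in *Il10*-/- mice. Unirradiated WT replicates 4 and 5, the lowest of their group for *Ccl6*, *Ccl9*, *Cxcl10* and *Ccl5*, enter both the WT response and the interaction. Their arrays also had the lowest shares of spots well above background in that group.

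Across the 20 arrays, some members varied together more closely than others. The log2 signals of *Ccl6* and *Ccl9* had a Pearson r of 0.97, and those of *Cxcl10* had 0.84 with *Ccl6* and 0.88 with *Ccl9*. *Cxcl16* had 0.81 with each of *Ccl6* and *Ccl9*. Among *Ccl3*, *Ccl4* and *Ccl5*, r was 0.88 between *Ccl3* and *Ccl4*, 0.86 between *Ccl4* and *Ccl5*, and 0.66 between *Ccl3* and *Ccl5*. Pairs of one of these 3 with *Ccl6*, *Ccl9*, *Cxcl10* or *Cxcl16* ran from 0.32 (*Ccl5* with *Cxcl10*) to 0.63 (*Ccl4* with *Ccl6* and with *Cxcl16*), close to the 0.65 between *Cxcl10* and *Cxcl16*, so the groupings were not sharply divided. *Cxcl2* had r between −0.20 and 0.42 with the other members. These values pool 4 groups and share arrays and their scaling, and they are a description only.

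**Figure D3:**
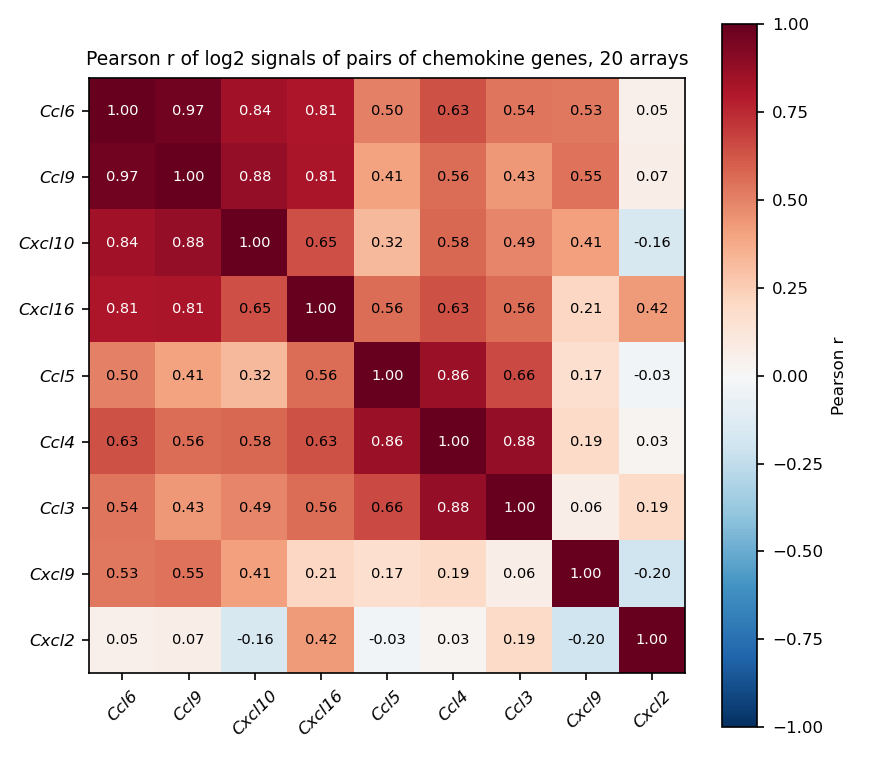
Pearson r between the log2 signals of each pair of the 9 chemokine genes over all 20 arrays, as colour, with both axes listing the genes. Among *Ccl6*, *Ccl9*, *Cxcl10* and *Cxcl16* r lies between 0.65 and 0.97, among *Ccl3*, *Ccl4* and *Ccl5* between 0.66 and 0.88, and between these groupings from 0.32 to 0.63.

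The probes whose log2 signals were most like each member were sought among 15712 probes by Pearson r over the same 20 arrays. For *Ccl9* they were *Phf11d* and *Phf11a*, both at 0.988, and for *Ccl6* *Adam15* at 0.974 and *Timp2* at 0.968. For *Cxcl10* they were *Ifi205* at 0.942 and *AI607873* at 0.904, and for *Cxcl16* *Ecm1* at 0.929 and *Trim47* at 0.923. Those nearest to *Ccl5* were *Xcl1* and *Tbx21*, both at 0.940, and to *Ccl4* *Gzma* at 0.909 and *Bbip1* at 0.908. *Ccl3* was nearest to *4930432F04Rik* at 0.885 and *Dclre1c* at 0.862. For *Cxcl2* and *Cxcl9*, which were mostly not well above background, the highest values were 0.920 with *Cntnap2* and 0.778 with *Dnph1*. All are the highest values of a search that pooled 4 groups, and they are a description only. With the group means removed, r for these pairs ranged from 0.713 (*Cxcl9* with *Dnph1*) to 0.957 (*Ccl9* with *Phf11d*).

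The remaining ligands of the family were read from a list of 31 genes, of which 28 were on the array and 12 were tested. That list too was chosen with earlier results known, so its counts beside those of all probes cannot show enrichment. In each genotype 3 of the 12 were called higher after irradiation, *Ccl2*, *Ccl24* and *Cxcl13*, and 0 were called lower, beside 4.48% of all tested probes called higher in WT and 3.29% in *Il10*-/- mice. None was called between unirradiated genotypes or for the interaction. The median log2 difference over the list was 1.25 in WT and 1.11 in *Il10*-/- mice. *Ccl24*, an eosinophil attractant acting on CCR3, stood at 2.25, 1.94, 2.31, 1.27 and 1.11 in unirradiated and 5.38, 5.39, 4.93, 4.73 and 6.22 in irradiated WT mice. The *Il10*-/- mice went from 0.65, 0.95, 2.76, 2.71 and 1.48 to 4.26, 4.23, 4.58, 4.63 and 4.54. All irradiated mice were above all unirradiated mice of their genotype, and the rises were 3.55 (11.7-fold, SE 0.41, adjusted p = 0.000111) and 2.74 (6.67-fold, SE 0.40, adjusted p = 0.000859).

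*Cxcl13*, a B cell attractant acting on CXCR5, was at 3.27, 3.31, 3.61, −0.83 and −1.75 in unirradiated and between 4.94 and 6.19 in irradiated WT mice. The probe was not well above background in the last 2 of the unirradiated mice, and the WT rise of 4.26 (SE 0.89, adjusted p = 0.00548) was no longer called without replicate 4 (3.67, adjusted p = 0.0231) or replicate 5 (3.45, adjusted p = 0.0123) of that group. The *Il10*-/- range went from 2.59 to 3.25 up to 5.06 to 6.54, a rise of 2.48 (5.58-fold, SE 0.31, adjusted p = 0.000265). The *Cxcl13* call was lost in WT without moderation of the variance (adjusted p = 0.0593) and in *Il10*-/- mice with all 4 groups in 1 fit (adjusted p = 0.0337). Of 6 tested B cell marker genes, 5 were called lower after irradiation in each genotype, with sums from 421 to 1221 falling to 80.4 to 149 in WT and from 391 to 992 falling to 53.9 to 74.8 in *Il10*-/- mice. *Ccl2*, the monocyte attractant of CCR2, was not well above background in any unirradiated WT mouse and was so on 4 of 5 irradiated WT arrays, at least 2.66-fold higher (fitted difference 2.30, SE 0.36, adjusted p = 0.000906). Its fitted difference in *Il10*-/- mice was 1.22 (SE 0.24, adjusted p = 0.00444), with the probe well above background on 1 of 5 unirradiated and 2 of 5 irradiated arrays. In the authors' own table of processed values the *Ccl2* differences were 1.77 and 1.64 and not called (adjusted p = 0.0158 and 0.0116). For *Ccl2* the call in *Il10*-/- mice was also lost with the slide as a block (adjusted p = 0.0186) and with replicates 1 and 2 averaged (adjusted p = 0.0288). The 3 ligands rose on 5 of 5 slides in both genotypes.

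**Figure D4:**
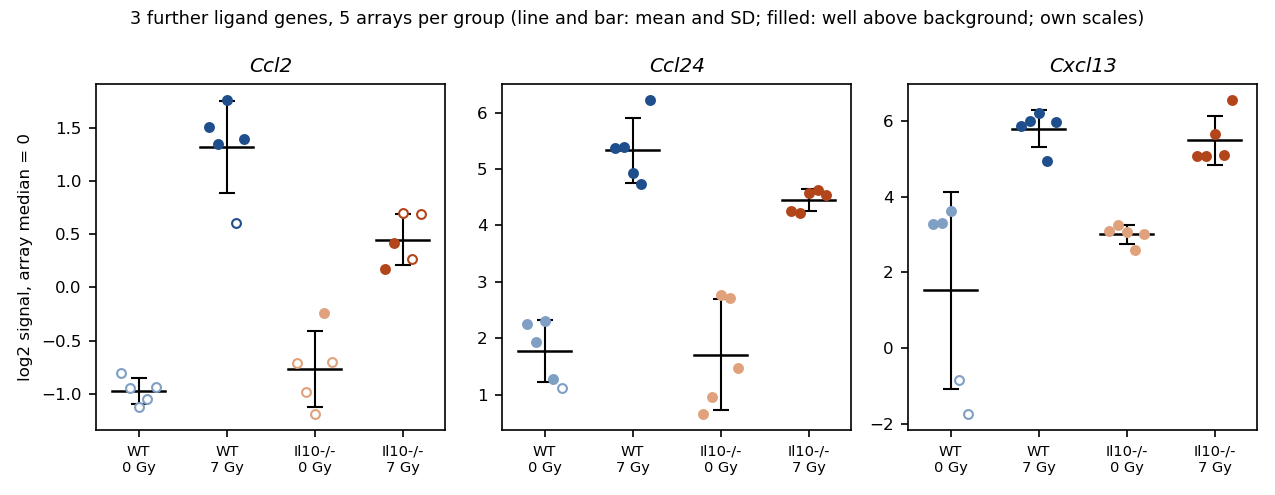
Log2 signal relative to the array median (vertical axis, own scale in each panel) of *Ccl2*, *Ccl24* and *Cxcl13* in 4 groups of 5 mice, replicates 1 to 5 from left to right. Lines and bars are means and SDs, and open circles are arrays on which the probe was not well above background: every irradiated mouse lies above every unirradiated mouse of its genotype.

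Receptors of the 9 ligands were read from a list of 8 genes, of which 7 were tested. Between unirradiated genotypes 0 were called, although *Ccr1*, *Cxcr2*, *Cxcr3* and *Cxcr6* each stood higher in *Il10*-/- mice at an unadjusted p under 0.05, beside 16.1% of all tested probes at that level. *Cxcr2* is also among the neutrophil markers. After irradiation 0 were called in WT mice, where *Ackr1* and *Ccr3* were among those with an unadjusted p under 0.05. In *Il10*-/- mice 1 was called lower, *Ackr1*, an atypical receptor that binds many chemokines without signalling for migration. Its log2 levels were 4.21, 4.32, 3.60, 2.99 and 4.47 before and 1.70, 2.06, 2.55, 2.65 and 3.13 after irradiation. The groups overlapped by 1 mouse each, and the difference was −1.50 (SE 0.35, adjusted p = 0.0105), lower on 5 of 5 slides. The call remained in 2 of the 10 fits that left out 1 mouse, with differences from −1.73 to −1.32, and in 3 of 13 other alternatives, with differences from −1.50 to −1.02. Every other scaling and the slide as a block ended it. The signalling receptors of the 9 ligands were not called in either response, but *Ccr3* was called lower in WT mice with the 75th percentile, the reference array or the authors' table as the scaling, and with a false discovery rate under 5% alone. Of 11 inducers and feedback regulators of chemokine genes, 8 were tested (*Ifng*, *Ifngr1*, *Ifngr2*, *Irf1*, *Tnf*, *Il1b*, *Nfkb1* and *Tnfaip3*), and 0 were called in any comparison. At an unadjusted p under 0.05 there were 3 between unirradiated genotypes (*Ifng*, *Il1b* and *Irf1*, all higher in *Il10*-/- mice), 1 in each response, lower in both, and 0 for the interaction. The shares of all tested probes at that level were 16.1%, then 29.1% in WT and 35.5% in *Il10*-/- mice, and 7%.

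Markers of the remaining blood cells give the setting of these values. In both genotypes 1 T cell gene was called lower after irradiation, *Cd8a*. The counts at an unadjusted p under 0.05 that follow stand beside 29.1% of all tested probes in WT and 35.5% in *Il10*-/- mice, in either direction. At that level, 2 of 6 tested T cell genes were lower in WT and 4 of 6 in *Il10*-/- mice. For NK cells 0 genes were called, with 3 of 8 higher at that level in each genotype. Among the platelet genes, *Gp1bb* was called higher in WT mice and 0 in *Il10*-/- mice. At an unadjusted p under 0.05, 6 of 7 were higher in WT and 5 of 7 in *Il10*-/- mice. Platelet sums at 0 and 7 Gy were 1428 to 3655 and 4156 to 8233 in WT mice. In *Il10*-/- mice they were 1595 to 10453 and 8658 to 17375. Neutrophil genes had 0 called after irradiation in either genotype. At an unadjusted p under 0.05, 1 of 7 was higher in WT (*Il1r2*) and 2 of 7 were lower in *Il10*-/- mice (*Retnlg* and *S100a8*). The part of these cells in the chemokine levels was not tested.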

How the data were processed

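RNA levels were read on 20 Agilent 1-colour mouse arrays, 1 for each of 5 mice in 4 groups, with Cy3-labelled cRNA from globin-reduced whole blood. The deposited scanner intensity values had been extracted and background-corrected by the authors with Agilent Feature Extraction. The version was 10.7 in the submitters' processing notes and 12.0.2.2 in the header of the deposited scanner data. The authors' deposited table of log2 values, median-normalized in BRB-ArrayTools, was used only as an alternative, and no fold change of theirs was read. Groups came from the sample titles, and the replicate number marks the slide.

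From the background-corrected signal, spots marked as non-uniform outliers were dropped, spots of a probe averaged, log2 taken, and the median of 39429 non-control probes subtracted on each array. Where 25% or more of a probe's values were marked or not significantly above background, the probe was removed, which left 22997, and those that were 1.5-fold from their median on under 20% of arrays were removed next, which left 18587. Each comparison was fitted with limma 3.58.1 in R 4.3.3 on its own 10 arrays, the interaction on all 20, with Benjamini-Hochberg adjustment over all tested probes. A difference was called at p under 0.001 and a false discovery rate under 10%. The fit was tested on simulated data. Confidence intervals are 95% intervals. Arrays give no read depth, so the number of arrays limits the precision. Where a probe was not well above background on any array of a group, a fold is given only as a bound, the bright group's mean against the higher, on each array, of the dim probe's own level and the lowest level well above background.

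The 9 genes and all other lists (31 further ligands, 8 receptors, 11 inducers and feedback regulators, and markers of 8 cell types) were chosen with earlier results of these data known. The text names every member, the genes called in each list, the marker genes called, and for each member the probes of named genes with the highest Pearson r. The values of 1 listed receptor are not reported here. Further genes, such as the list genes at an unadjusted p under 0.05, were chosen after their values were seen. Promoters came from RefSeq tables of GRCm38.p6 and were matched by symbol for 6 of 9 genes, aligned with Biopython 1.88. The letters of the motifs were settled after matches had been seen, and longer forms of the interferon and NF-kB motifs matched fewer promoters, members included. Probe positions were taken as the array files give them, in build mm9, and no coordinates were converted. Alternatives were other scalings (75th percentile, a reference array, quantile), normexp background correction, the authors' table, other filters, all 4 groups in 1 fit, no moderation of the variance, a false discovery rate under 5% alone, the slide as a block, and leaving out each mouse. Averaging replicates 1 and 2 was added after seeing the data.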

Additional observations from a re-analysis of the deposited data

Results flagged for a closer look

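In 36 sets of 5 mice, 1 for each tested probe and group, 3 held a mouse whose gap to the nearest other was large for the range of its group. Chance gives about 1 in 20 such sets. *Cxcl2* stood at 0.444 in WT 7 Gy replicate 5 and between −1.61 and −1.50 in the other 4 mice, and all 5 values were near background. *Cxcl10* stood at 1.59 in *Il10*-/- 0 Gy replicate 4, against 0.35 to 0.62 in the others, and this mouse alone overlapped the irradiated *Il10*-/- group. *Ccl5* stood at 9.90 in WT 7 Gy replicate 4, against 8.80 to 9.11.

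The second probe of *Cxcl9*, which the filters removed from the tests, was well above background on 2 arrays of irradiated WT mice and on 0 of the 10 arrays of unirradiated mice. Without any filter its difference after irradiation in *Il10*-/- mice was 1.76 and called (adjusted p = 0.00237), although the probe was not well above background on any array of either *Il10*-/- group.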

How the results depend on the processing

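Across 13 alternatives, the differences of *Ccl9* after irradiation ranged from 2.30 to 3.04 in WT mice, called in 13, and from 1.14 to 1.72 in *Il10*-/- mice, called in 12. The number of the 9 genes called in WT mice went from 2 to 1 with normexp and to 1 without moderation of the variance. In *Il10*-/- mice it went from 3 to 0 with normexp, to 1 with all 4 groups in 1 fit and to 1 with replicates 1 and 2 averaged. Leaving out 1 mouse gave 1 to 3 genes in WT mice (1 without WT 0 Gy replicate 4, WT 7 Gy replicate 4 or WT 7 Gy replicate 5), 1 to 2 in *Il10*-/- mice, and 0 between unirradiated genotypes and for the interaction. Beside *Ccl6* and *Ccl9*, *Cxcl10* was called in WT mice with all 4 groups in 1 fit (adjusted p = 0.00306) and with replicates 1 and 2 averaged (2.39, adjusted p = 0.0185). *Ccl6* was lost in WT mice without moderation (adjusted p = 0.0365), and in *Il10*-/- mice *Ccl6* and *Cxcl16* were lost with no filter (adjusted p = 0.0263 and 0.0253) and with all 4 groups in 1 fit (0.0867 and 0.0698). The cause was not tested.

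Among further ligands, the count in WT mice went from 3 to 5 with quantile normalization and to 6 with a false discovery rate under 5% alone, and in *Il10*-/- mice to 0 with normexp. Leaving out 1 mouse gave 2 to 4 and 3 to 3. Receptors called in WT mice went from 0 to 1 (*Ccr3*, lower) with the 75th percentile, the reference array and the authors' table, to 1 (not *Ccr3*) with all 4 groups in 1 fit, and to 2 with a false discovery rate under 5% alone. In *Il10*-/- mice the receptor *Ackr1* was lost, giving 0, with the 75th percentile, reference array, quantile, normexp, authors' table, no filter, all 4 groups, no moderation, block and averaged settings. Leaving out 1 mouse gave 0 to 1 receptors in each of the first 3 comparisons and 0 to 1 inducers or feedback regulators in each response. Of that last list the reference array gave 1 gene in WT mice, *Tnfaip3*, called lower.

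The replicate numbers mark slides, and same-numbered mice did not deviate together in all 5 slides for any pair of groups (mean r −0.13 to 0.41). With the slide as a replicate block, 0, 3, 2 and 0 of the 9 genes were called between unirradiated genotypes, in WT, in *Il10*-/- mice and for the interaction. The block gained *Cxcl10* in WT (adjusted p = 0.0110), lost *Cxcl16* and the further ligand *Ccl2* in *Il10*-/- mice (adjusted p = 0.0253 and 0.0186) and gave 1 receptor, *Cxcr2*, between unirradiated genotypes.

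Signs turned only for differences that were not called. Between unirradiated genotypes *Cxcl9* was −0.34, −0.30 and −0.46 with the 75th percentile, reference array and authors' table, *Ccl3* −0.012 with the 75th percentile, and *Cxcl10* −0.058 in the authors' table. *Ccl3* in WT mice was −0.11 with the 75th percentile and *Ccl5* in *Il10*-/- mice −0.25 with normexp. For the interaction *Cxcl16* was 0.15, 0.16 and 0.13, and *Ccl4* 0.14, 0.15 and 0.12, with the 75th percentile, reference array and authors' table, and *Ccl4* 0.13 with quantile normalization. Leaving out 1 mouse gave −0.20 to 0.24 for *Cxcl9* between unirradiated genotypes, −0.12 to 0.29 for *Ccl3* in WT, −0.12 to 0.27 for *Ccl5* in *Il10*-/- mice, and −0.52 to 0.26 and −0.32 to 0.14 for the interaction of *Cxcl16* and *Ccl4*. Setting aside fits that left out a mouse, 392 values of members kept their direction and side of the threshold under an alternative, 12 fell short of it, 5 passed it and 14 changed sign.

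Over all probes, the 157 called between unirradiated genotypes became 43 with the 75th percentile, 77 with the reference array, 25 with quantile, 0 with normexp, 57 in the authors' table, 66 with no filter, 8 without moderation, 76 at 5% alone and 384 with the block. The 1263 in WT mice became 261 with normexp, 2119 with all 4 groups, 742 without moderation, 2712 at 5% alone and 754 averaged, and the 1702 in *Il10*-/- mice 0, 4053 and 815 with normexp, at 5% alone and averaged. Leaving out 1 mouse gave 47 to 181, 863 to 1573 and 1133 to 1535. WT calls were 832 higher and 431 lower, against 795 and 761 with the 75th percentile, 705 and 693 with quantile, 1082 and 734 with the reference array, and 257 and 4 with normexp. In *Il10*-/- mice 611 were higher and 1091 lower, against 943 and 908 with the reference array and 946 and 872 in the authors' table. The median of all probes between unirradiated genotypes was 0.36, and −0.021, 0.11, 0.53 and −0.044 with the reference array, quantile, normexp and authors' table, and in WT mice −0.28 and 0.65 with the 75th percentile and normexp. Members near background (*Cxcl2*, *Cxcl9*, *Cxcl10* in unirradiated WT mice) limit what can be measured.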
